A study of Homo sapiens with 6 samples.

Results

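The 10 genes described here act in iron uptake, iron storage and heme synthesis: TFRC, SLC11A2, FTH1, FTL, NCOA4, IREB2, ACO1, SLC25A37, ALAS1 and FECH. They were chosen by name, and each symbol matched 1 Ensembl identifier among the 58233 gene rows of the count table. All 10 passed the filter on low counts, as did 13028 genes in all. Messenger RNA was sequenced from OCI-AML2, an established human acute myeloid leukemia line, in 3 libraries labelled IKZF1-ko, in which the Ikaros gene IKZF1 was targeted by CRISPR, and 3 labelled NT control, which carry a non-targeting guide. Cells of both groups were grown in medium with serum, and no drug treatment is named for either. The question was which genes differ with loss of IKZF1. The series text names 3 lines per group while the protocol names triplicate extractions, so the replicate error behind each p-value may be technical rather than biological. The protocol speaks of parental cells where the labels say NT control, and neither text says how many clones or guides were used.

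Iron enters most cells bound to transferrin, which the transferrin receptor carries into endosomes. The freed iron is used in mitochondria for heme and iron-sulfur clusters, or is stored in ferritin and released again when ferritin is broken down in lysosomes. When iron is scarce, iron regulatory proteins bind hairpins called iron-responsive elements in mRNA. Binding in the 3′ UTR protects the receptor mRNA from decay, whereas binding in the 5′ UTR blocks translation of ferritin mRNA, a step that mRNA counts do not show. Dividing leukemia cells are known for high transferrin receptor levels.

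The hairpins are shown because their position, in the 3′ or the 5′ UTR, separates TFRC from the ferritin genes in the regulation described above. UTRs of protein-coding transcripts in GENCODE release 29 (GRCh38) were searched on the transcribed strand. The motif was a C, 5 bases, the loop CAGTGN and 5 bases that pair with the first run through A-T, G-C or G-T pairs. Capitals mark the loop, and each window holds 28 bases. TFRC had 4 such matches in its 3′ UTR on the minus strand of chromosome 3 (chr3:196050979-196051006, chr3:196050575-196050602, chr3:196050510-196050537 and chr3:196050463-196050490, in transcript order). FTH1 had 1 in its 5′ UTR (chr11:61967574-61967601, minus strand), and so did FTL (chr19:48965336-48965363, plus strand).
TFRC site 1: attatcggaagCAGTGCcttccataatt
TFRC site 2: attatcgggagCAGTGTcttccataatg
TFRC site 3: tgtatcggagaCAGTGAtctccatatgt
TFRC site 4: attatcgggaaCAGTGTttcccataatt
FTH1: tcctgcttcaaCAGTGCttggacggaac
FTL: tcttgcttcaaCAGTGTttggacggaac
SLC11A2: gccatcagagcCAGTGTgtttctatggt
SLC40A1: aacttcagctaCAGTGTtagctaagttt

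The SLC11A2 window (3′ UTR, chr12:50988269-50988296, minus strand) has 1 unpaired position among the 5. The SLC40A1 window (5′ UTR, chr2:189580661-189580688, minus strand) belongs to the iron exporter gene described among the other genes of the pathway. A fully paired match was present in a UTR of 159 of 19652 protein-coding genes (0.809%), and in 3 of the 10 members. With 1 unpaired position allowed, 1116 genes (5.68%) and 6 members had one. The members added by that allowance were SLC11A2, ACO1 and IREB2, each with 1 window in the 3′ UTR. The SLC11A2 window is printed because its mRNA is on the list of known iron-responsive elements, and the search does not set it apart from the other two. UTRs differ in length between genes, and a match is a description of the letters, not of a bound site. Hairpins with another loop sequence were not searched for, so the matches may not be all the hairpins of a gene.

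Library depth ranged from 15250588 to 18214328 counts in IKZF1-ko and from 11300519 to 14983528 in NT control. IKZF1 mRNA was at 421, 426 and 436 CPM (counts scaled by library size and a TMM factor) in IKZF1-ko replicates 1, 2 and 3, and at 331, 292 and 334 CPM in the NT control replicates. IKZF1 mRNA was thus higher in every library labelled IKZF1-ko than in every NT control library. Its log2 fold change was 0.42 on group alone (edgeR adjusted p = 0.61) and 0.43 once a term for library set, described below, was added (SE 0.0469, edgeR adjusted p = 1.23e-05), which it passed in all 16 alternatives (adjusted p from 2.83e-24 to 0.00042). A lower level, which would have checked the labels, was not seen, and gene counts show neither an edit nor a protein. Every direction below is between the libraries as labelled. IKZF1-ko replicate 1 and NT control replicate 2 stood apart from the other 4 libraries on the first principal component, which held 67.6% of the variance. Their scores were 50.1 and 39.5, against -29.1 to -16.3 in the others, and no label names what they share. All 13 myeloid marker genes had counts in at least 1 library, though CD68, ITGAM and CD14 were under the filter. CD68 had 0 counts in IKZF1-ko replicate 1 and NT control replicates 1 and 2, and CD14 in NT control replicate 3. CD68 shares exon positions with another gene on each strand, and how reads in shared positions were counted is not given. The summed level of the 13 was 3584, 2427 and 2364 CPM in IKZF1-ko and 2136, 3538 and 2155 CPM in NT control. AZU1 alone was at 1620, 857 and 791 CPM in IKZF1-ko and 710, 1677 and 688 CPM in NT control. Of 18 erythroid markers, 13 had 0 counts in every library, among them the globin genes and ALAS2, the erythroid form of the first heme enzyme. A count of 0 allows up to 0.266 CPM in the shallowest library, for counting error only. The erythroid sum of 27.3 to 36.3 CPM came almost wholly from TFR2 and EPOR. The 7 lymphoid markers, 3 of them at 0, summed to 7.15 to 11.3 CPM in IKZF1-ko and 7.96 to 11.1 CPM in NT control.

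Each gene was tested in a pair of fits, both with edgeR's quasi-likelihood test and with p-values adjusted over all tested genes. The first is on group alone. The second adds a library-set term for the pair that stands apart. The term came from the same counts, and its p-values do not include the error of that choice. "Rose" and "fell" refer to an adjusted p under 0.05 in the second fit. In that fit TFRC, NCOA4 and ALAS1 fell and SLC25A37 and SLC11A2 rose, with fitted ratios of IKZF1-ko to NT control from 0.791 to 1.18. In bulk RNA, fewer cells with a transcript and less of it per cell cannot be told apart. On group alone 0 of the 10 members were called, where 0% of all genes were called. On group alone DESeq2 called 71 genes and limma-voom called 1, with 0 members in either, and in edgeR 0 members had an unadjusted p under 0.05 (456 of all genes did).

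With the library-set term 2 members rose, where 6.93% of all tested genes did, and 3 fell, where 6.62% did. Among the 6162 genes at least as abundant as the least abundant member, at 30.97 CPM, 7.81% rose and 10.5% fell. The members were picked with earlier results of these data known, so their share is not read against these values as evidence. In the 4 libraries without the pair, tested alone, 1 member rose (7.64% of 12951 genes) and 3 fell (7.1%). In the whole series, and so also in those 4 libraries, every IKZF1-ko library was deeper than every NT control library. Whether depth plays a part in any of these calls was not tested. The ranges of the groups overlapped for all 10 members, whereas 9.35% of all tested genes had groups that did not overlap. The median log2 fold change over the members was -0.012 with the library-set term, against 0.002 over all tested genes.

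**Figure D1:**
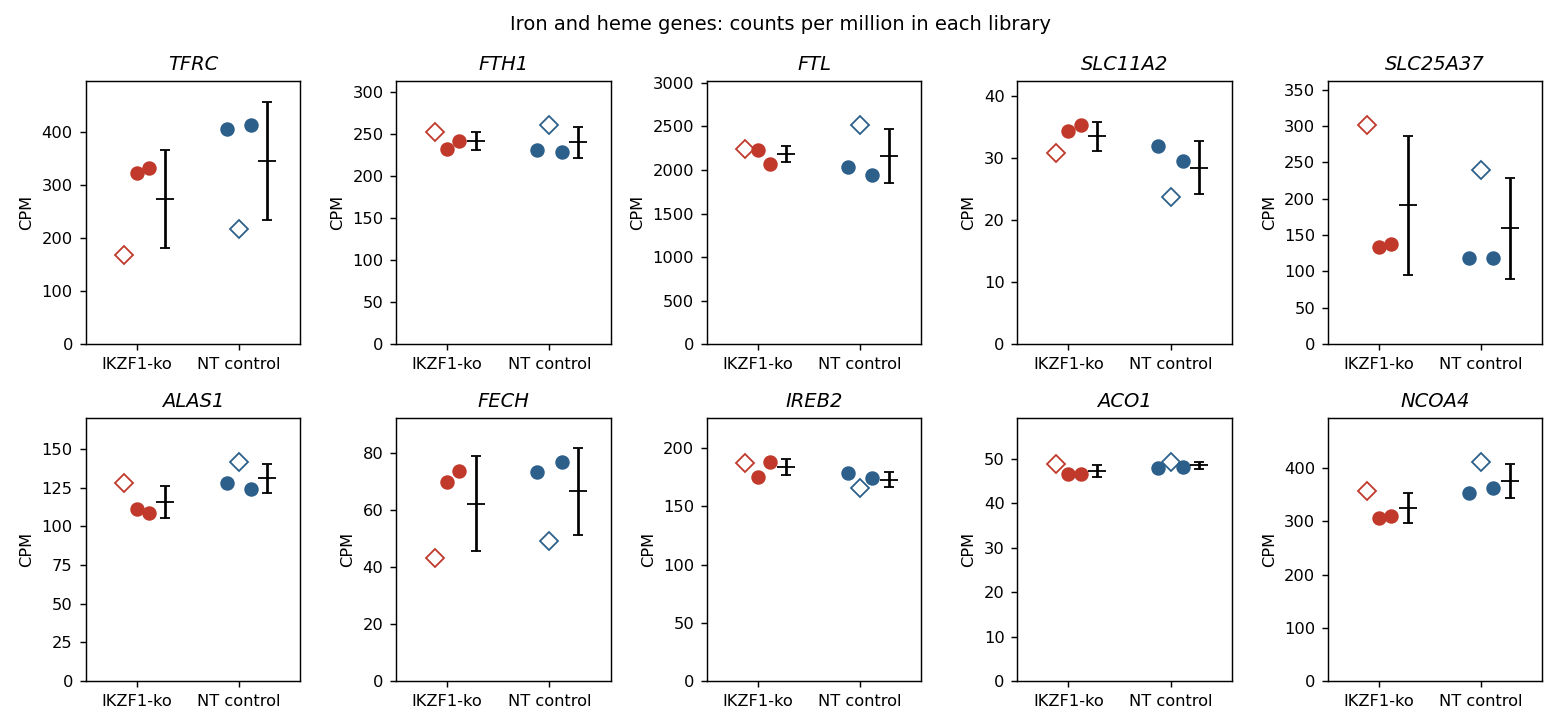
Level in CPM (y axis, from 0) of each member in every library, with IKZF1-ko left and NT control right. Open diamonds are the libraries that stand apart, and bars give the mean and SD of 3 libraries. TFRC reads 168 and 217 CPM in the open diamonds and 322 to 414 CPM in the other libraries, and SLC25A37 shows the opposite order.

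TFRC (ENSG00000072274, GRCh38 chromosome 3, 196027183 to 196082189) encodes transferrin receptor 1, the main route of iron into dividing cells. It was at 168, 322 and 333 CPM in IKZF1-ko replicates 1, 2 and 3, and at 406, 217 and 414 CPM in NT control replicates 1, 2 and 3. The lowest value of each group was the library that stands apart, and within each set the IKZF1-ko libraries were below the NT control libraries. The means were 274.4 ± 92.6 CPM in IKZF1-ko and 345.5 ± 111.6 CPM in NT control (SD, n = 3 each). On group alone the log2 fold change was -0.33 (SE 0.339, 95% interval -1.14 to 0.476, edgeR adjusted p = 1.00). Leaving out 1 library moved that value from -0.58 without NT control replicate 2 to -0.076 without IKZF1-ko replicate 1. With the library-set term it was -0.34 (SE 0.0448, 95% interval -0.43 to -0.24, edgeR adjusted p = 8.94e-05), and it passed in all 16 alternatives to that fit (adjusted p from 1.01e-14 to 0.0047). In the 4 libraries it was -0.32 (adjusted p = 1.46e-06), and the pair alone gave a difference of -0.37 with no test.

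SLC11A2 (ENSG00000110911, chromosome 12, 50979401 to 51028566) encodes DMT1, which moves iron out of the endosome. It was at 30.9, 34.4 and 35.4 CPM in IKZF1-ko and 32.0, 23.7 and 29.6 CPM in NT control. IKZF1-ko replicate 1 lay inside the NT control range, and NT control replicate 2 was the lowest of all libraries. With the library-set term SLC11A2 rose by a log2 fold change of 0.24 (SE 0.0769, edgeR adjusted p = 0.044), but it passed in 7 of 16 alternatives (adjusted p from 0.0075 to 0.16). It did not pass in the 4 libraries (0.18, adjusted p = 0.16) or without any one of the 6 libraries.

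The ferritin genes did not pass the test in either fit. FTL (ENSG00000087086, chromosome 19, 48965301 to 48966878), the light ferritin chain, was at 2241, 2231 and 2072 CPM in IKZF1-ko and at 2030, 2518 and 1945 CPM in NT control. FTH1 (ENSG00000167996, chromosome 11, 61959718 to 61967660), the heavy chain that oxidises iron as it enters the shell, was at 252.7, 231.8 and 241.0 CPM in IKZF1-ko and 230.3, 260.6 and 228.4 CPM in NT control. In both genes NT control replicate 2 was highest and the groups overlapped. With the library-set term the log2 fold change was 0.02 for FTL (95% interval -0.093 to 0.13, edgeR adjusted p = 0.86) and 0.014 for FTH1 (-0.084 to 0.11, adjusted p = 0.89). For FTL the log2 fold change was 0.11 within the 4 libraries (adjusted p = 0.073) and -0.17 within the pair.

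The level of FTH1 is uncertain on this table. BEST1, on the opposite strand, shares 1267 of the 2030 exon bases of FTH1 (62.4%), and the strand setting of the counting is not given in the sources used here. The table also has 26 rows named as pseudogenes of FTH1, which together held 17 to 23 counts in IKZF1-ko libraries and 11 to 25 in NT control libraries. The 16 rows for FTL held 7 to 10 counts in IKZF1-ko and 4 to 12 in NT control. How reads that fit several copies were treated is not given either. Per kilobase of exon, FTH1 counts were 0.0449 to 0.0503 of those of FTL in IKZF1-ko libraries and 0.0448 to 0.0508 in NT control libraries. The range of that ratio was thus similar in both groups.

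NCOA4 (ENSG00000266412, chromosome 10, 46005088 to 46030714) encodes the receptor that delivers ferritin to autophagosomes, which frees its iron. It was at 358, 307 and 311 CPM in IKZF1-ko and 353, 412 and 363 CPM in NT control. The IKZF1-ko library of each set was below the NT control libraries of that set, and the overlap came from IKZF1-ko replicate 1 alone. The means were 325 ± 28.1 and 376 ± 31.8 CPM in IKZF1-ko and NT control (SD, n = 3 each). NCOA4 fell by 0.21 on the log2 scale with the library-set term (SE 0.0436, edgeR adjusted p = 0.0040), and it passed in all 16 alternatives (adjusted p from 3.31e-06 to 0.040). On group alone the fold change was also -0.21, with an adjusted p of 1.00.

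IREB2 (ENSG00000136381, chromosome 15, 78437431 to 78501456) and ACO1 (ENSG00000122729, chromosome 9, 32384603 to 32454769) encode the iron regulatory proteins that bind the hairpins shown above. ACO1 doubles as an enzyme, cytosolic aconitase, when it carries an iron-sulfur cluster, whereas IREB2 is degraded when iron is plentiful. IREB2 was at 187, 176 and 189 CPM in IKZF1-ko and 178, 166 and 175 CPM in NT control. ACO1 was at 48.8, 46.5 and 46.6 CPM in IKZF1-ko and 48.0, 49.4 and 48.2 CPM in NT control. These were the steadiest members, with an SD over the 6 libraries of 0.070 log2 units for IREB2 and 0.035 for ACO1. Neither passed with the library-set term, at a log2 fold change of 0.089 for IREB2 (95% interval -0.018 to 0.20, edgeR adjusted p = 0.28) and -0.037 for ACO1 (-0.17 to 0.092, adjusted p = 0.76). Both act largely through protein, which was not measured.

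SLC25A37 (ENSG00000147454, chromosome 8, 23528805 to 23575463) encodes mitoferrin-1, an importer of iron into mitochondria. It was at 301, 134 and 138 CPM in IKZF1-ko replicates 1, 2 and 3 and at 119, 239 and 119 CPM in NT control replicates 1, 2 and 3. The libraries that stand apart were the highest of each group, by more than the other libraries differed from each other. Within each set the IKZF1-ko libraries were above the NT control libraries. The log2 fold change was 0.26 on group alone (SE 0.413, 95% interval -0.72 to 1.25, edgeR adjusted p = 1.00) and 0.24 with the library-set term (SE 0.0494, adjusted p = 0.0036). With a surrogate variable in place of that term it was 0.12 and did not pass (adjusted p = 0.22). It passed in the other 15 alternatives, in which the lowest adjusted p was 1.60e-06.

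ALAS1 (ENSG00000023330, chromosome 3, 52198086 to 52214327) encodes the first and rate-limiting enzyme of heme synthesis outside red cells. It was at 128, 111 and 108 CPM in IKZF1-ko and 128, 142 and 124 CPM in NT control. IKZF1-ko replicates 2 and 3 were below all NT control libraries, and IKZF1-ko replicate 1 was not. ALAS1 fell by 0.18 on the log2 scale with the library-set term (SE 0.0482, edgeR adjusted p = 0.018). It did not pass without IKZF1-ko replicate 3 (adjusted p = 0.14), NT control replicate 1 (0.11) or NT control replicate 3 (0.050), and it passed in the other 13 of 16 alternatives, with an adjusted p down to 0.00068.

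FECH (ENSG00000066926, chromosome 18, 57548283 to 57586772) encodes ferrochelatase, which inserts iron into protoporphyrin as the last step of heme synthesis. It was at 43.2, 69.8 and 73.6 CPM in IKZF1-ko and 73.5, 49.2 and 77.0 CPM in NT control. The groups overlapped in part, and the low value of each group was the library that stands apart. FECH did not pass with the library-set term, at a log2 fold change of -0.10 (95% interval -0.23 to 0.02, edgeR adjusted p = 0.27).

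**Figure D2:**
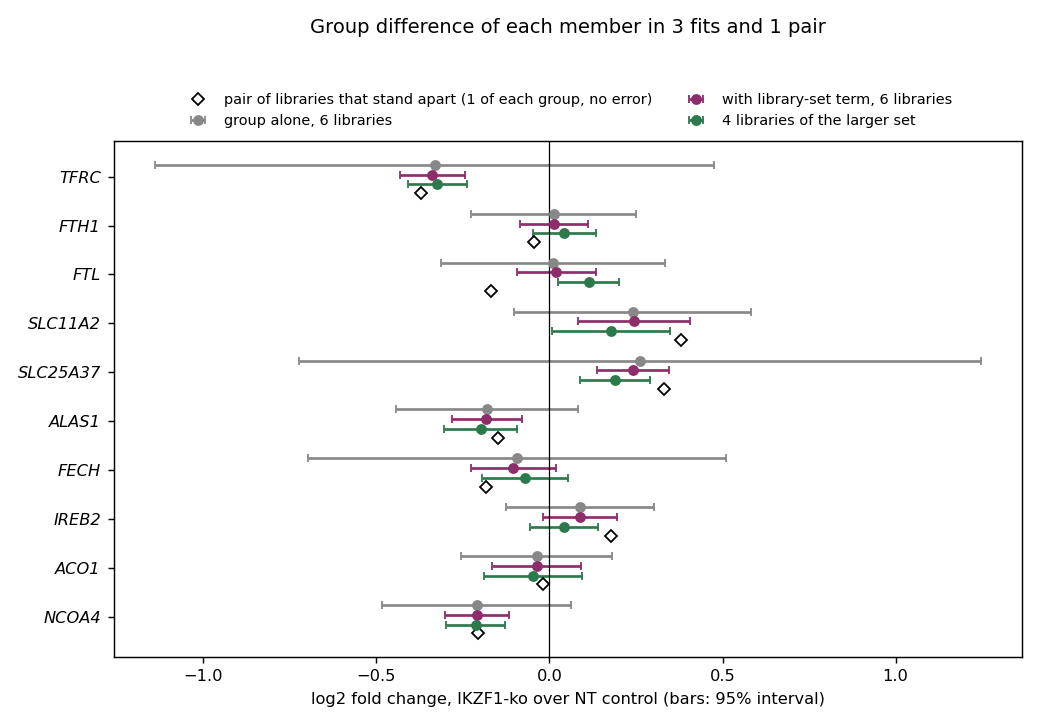
Log2 fold change of IKZF1-ko over NT control (x axis) for each member, in the fit on group alone, the fit with the library-set term and the 4 libraries of the larger set, with 95% intervals. Diamonds give the difference within the pair that stands apart, with no error. For TFRC the interval runs from -1.14 to 0.476 on group alone and from -0.43 to -0.24 with the term.

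Per kilobase of exon, so that genes can be set side by side, FTL had the highest mean level over the 6 libraries at 2475 CPM per kilobase. FTH1 followed at 118.6, NCOA4 at 86.0, ALAS1 at 48.7 and TFRC at 39.3. SLC25A37 was at 21.5, IREB2 at 16.5, FECH at 14.4, ACO1 at 6.34 and SLC11A2 at 3.05 CPM per kilobase. The lengths count every annotated exon, so genes with many long variants read low. The level of FTH1 is uncertain for the reasons given above, and so is its place in this order.

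Both libraries of the pair that stands apart were above the other 4 for 5 members (SLC25A37, FTH1, FTL, ALAS1 and ACO1) and below them for 2 (TFRC and FECH). Of all tested genes 32.5% were above and 31.5% below in this way. The order held by little for ALAS1, FTL and ACO1. The lower library of the pair was at 128.0, 2241 and 48.8 CPM in these genes. The highest of the other libraries was at 127.8, 2231 and 48.2 CPM. The pair was defined from these counts, so the values are a description with no test. For SLC25A37, IKZF1-ko replicate 1 was 1.15 log2 units above the mean of IKZF1-ko replicates 2 and 3, and NT control replicate 2 was 1.01 above the mean of the other NT control libraries. The same difference was -0.97 for TFRC and -0.73 for FECH in IKZF1-ko, against -0.92 for TFRC and -0.61 for FECH in NT control. The receptor and the last heme enzyme were thus low in the same libraries in which the mitochondrial importer was high. ALAS1 differed by 0.22 in IKZF1-ko and 0.17 in NT control, and NCOA4 by 0.21 and 0.20. FTL differed by 0.06 in IKZF1-ko and by 0.34 in NT control. The summed myeloid markers were also highest in this pair, at 3584 and 3538 CPM, of which AZU1 alone held 1620 and 1677 CPM. The markers did not move together. Of the 10 tested, 4 were above the other libraries in both libraries of the pair, and 3 were below (LYZ, SPI1 and CEBPA). The part of the myeloid markers in these differences was not tested.

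**Figure D3:**
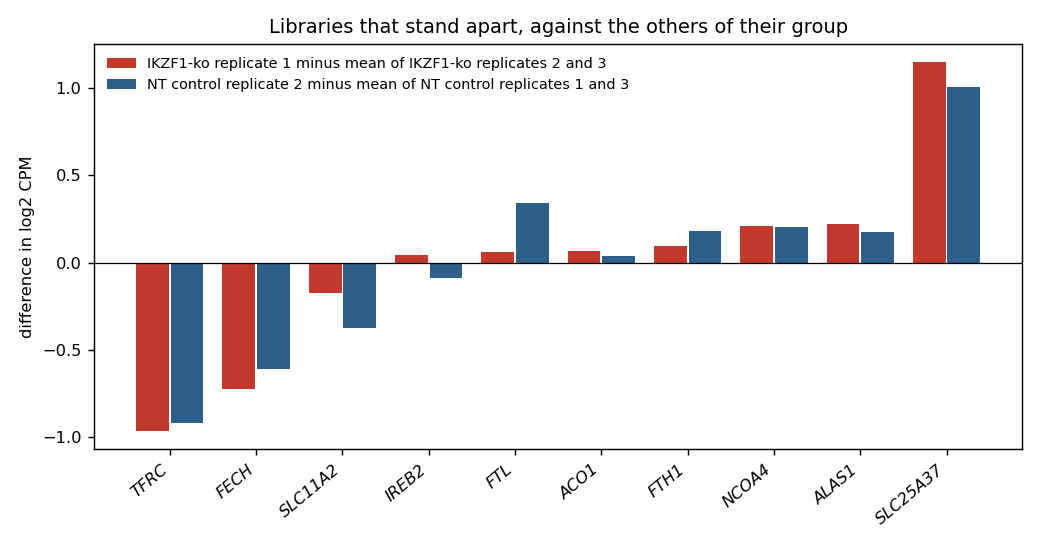
Difference in log2 CPM (y axis) between each library that stands apart and the mean of the other 2 libraries of its group, for each member, with IKZF1-ko bars left and NT control bars right. TFRC and FECH are at -0.97 to -0.61 and SLC25A37 at 1.01 to 1.15, and IREB2 has bars of opposite sign.

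The gene nearest to each member was found by the root mean square difference of log2 CPM over the 6 libraries, each gene centred on its mean. For TFRC it was SNRNP25 (0.0296 log2 units), for SLC25A37 it was GBE1 (0.0260) and for FECH it was WASHC5 (0.0181). FTL lay nearest to DEF6 (0.0222), FTH1 to RCHY1 (0.0200), NCOA4 to LCMT1 (0.0150) and ALAS1 to PTTG1IP (0.0234). SLC11A2 lay nearest to TMEM87A (0.0384), IREB2 to TTYH3 (0.0151) and ACO1 to N4BP1 (0.0176). In no case was the nearest gene another member. With 13028 tested genes and 6 libraries, a near match from outside the members is likely for any gene. The nearest genes are thus a description and do not show whether the members share a pattern. The libraries fall into separate sets, so no correlation between genes across libraries is given.

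The other genes of the pathway were taken from written lists, each of which includes the members that belong to it. The counts of each list stand beside the 6.93% of all tested genes that rose and the 6.62% that fell with the library-set term. Of 18 genes of iron uptake and endosomal release 14 were tested, and with the library-set term 1 rose and 2 fell, with a median log2 fold change of 0.09. The second that fell was STEAP1, of the family that includes the endosomal metalloreductases. It was at 1.47, 1.47 and 1.66 CPM in IKZF1-ko and 2.97, 3.48 and 3.50 CPM in NT control, so the groups did not overlap. Its log2 fold change was -1.11 (SE 0.234, edgeR adjusted p = 0.0043) from 22 to 51 counts per library, and it passed in all 16 alternatives (adjusted p from 8.59e-05 to 0.022). On group alone its adjusted p was 0.46. TFR2, the second transferrin receptor, averaged 17.6 ± 1.54 CPM in IKZF1-ko and 15.5 ± 2.08 CPM in NT control (SD, n = 3 each) and did not pass (edgeR adjusted p = 0.29).

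Of 9 genes of storage and ferritin breakdown 7 were tested, and NCOA4 alone fell and 0 rose (median 0.02). The iron chaperone genes PCBP1 and PCBP2, which load ferritin, had log2 fold changes of 0.037 and 0.038 and did not pass. PCBP2 shares exon positions with other genes on its strand. Of 8 export genes 3 were tested, 0 rose and 1 fell (median -0.078), namely SLC40A1, the only known cellular iron exporter. It was at 18.7, 8.19 and 10.2 CPM in IKZF1-ko and 12.7, 22.1 and 13.6 CPM in NT control, so the groups overlapped and the libraries that stand apart were highest. Its log2 fold change was -0.40 (SE 0.114, edgeR adjusted p = 0.026), and it passed in 12 of 16 alternatives (adjusted p from 0.0015 to 0.11). It did not pass without IKZF1-ko replicate 2 (adjusted p = 0.11), NT control replicate 1 (0.087) or NT control replicate 3 (0.089), or with DESeq2 (0.054).

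All 9 genes around the iron regulatory proteins were tested, and 1 fell and 0 rose (median -0.037). That was CIAO2B, of the cytosolic iron-sulfur targeting complex, at 34.5, 35.4 and 35.4 CPM in IKZF1-ko and 41.8, 47.4 and 40.8 CPM in NT control (log2 fold change -0.30, SE 0.0713, edgeR adjusted p = 0.0091). It passed in 15 of 16 alternatives (adjusted p from 0.00015 to 0.050), and not without NT control replicate 2. Of 19 genes of mitochondrial iron import and iron-sulfur assembly 18 were tested, 1 rose and 2 fell, and the median was -0.10. ABCB10, a mitochondrial transporter that stabilises mitoferrin-1 in mouse erythroid cells, was at 129, 164 and 173 CPM in IKZF1-ko and 233, 191 and 251 CPM in NT control. The groups did not overlap, and ABCB10 fell while SLC25A37 rose (log2 fold change -0.54, SE 0.0494, edgeR adjusted p = 1.57e-06). It passed in all 16 alternatives to that fit, and on group alone its adjusted p was 0.93. ISCU, the scaffold on which iron-sulfur clusters are built, fell by 0.21 on the log2 scale (adjusted p = 0.030) and passed in 9 of 16 alternatives (adjusted p from 0.0039 to 0.15), which do not include the 4 libraries (0.068).

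Of 13 heme synthesis genes 11 were tested, and ALAS1 alone fell and 0 rose (median -0.085). CLPX, a mitochondrial protease subunit that acts on the first enzyme, had a log2 fold change of 0.09, and UROS, uroporphyrinogen synthase, had -0.13, and neither passed. Of 7 genes of heme breakdown and sensing 5 were tested, 1 rose and 1 fell (median -0.031). BLVRB, a biliverdin reductase, was at 20.5, 12.2 and 11.1 CPM in IKZF1-ko and 4.16, 18.2 and 7.26 CPM in NT control (log2 fold change 0.63, SE 0.172, edgeR adjusted p = 0.021). The groups overlapped, and its log2 fold change was 1.04 in the 4 libraries and 0.17 in the pair. It passed in 11 of 16 alternatives (adjusted p from 4.83e-08 to 0.19). The related gene BLVRA fell by 0.33 on the log2 scale (adjusted p = 0.040) and passed in 9 of 16 alternatives (adjusted p from 0.0045 to 0.23). HMOX1, the inducible heme oxygenase gene, was under the filter.

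Across the 10 mRNAs listed as carrying an iron-responsive element, 7 were tested, 1 rose (SLC11A2) and 2 fell (TFRC and SLC40A1), with a median log2 fold change of 0.014. The hairpin of TFRC lies in the 3′ UTR and that of SLC40A1 in the 5′ UTR. ALAS2 and CDC42BPA had 0 counts, and EPAS1 was under the filter.

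Among the myeloid markers 10 were tested, 3 rose and 1 fell with the library-set term (median 0.11), where 6.93% of all tested genes rose and 6.62% fell. CSF1R, the receptor of macrophage colony-stimulating factor, averaged 12.9 ± 4.62 CPM in IKZF1-ko and 3.24 ± 1.72 CPM in NT control (SD, n = 3 each; log2 fold change 2.03, edgeR adjusted p = 5.09e-07). The granule protease genes ELANE and PRTN3 also rose, by 0.77 and 0.43 on the log2 scale, and LYZ, lysozyme, fell by 0.36. Each of these 4 passed in all 16 alternatives to that fit. ELANE and PRTN3 were high in the same libraries as SLC25A37, at 287 and 553 CPM in IKZF1-ko replicate 1 and 199 and 506 CPM in NT control replicate 2. Of the other libraries the highest values were 161 CPM for ELANE and 222 CPM for PRTN3. LYZ went the other way, at 169 CPM in IKZF1-ko replicate 1 and 222 CPM in NT control replicate 2. In the other libraries LYZ was at 223 to 298 CPM. SPI1 and CEBPA were likewise lowest in the libraries that stand apart. The part of these genes in the iron results was not tested. Of the erythroid markers TFR2 and EPOR were tested and neither passed (median 0.05). Of the lymphoid markers NKG7 alone was tested and did not pass.

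**Figure D4:**
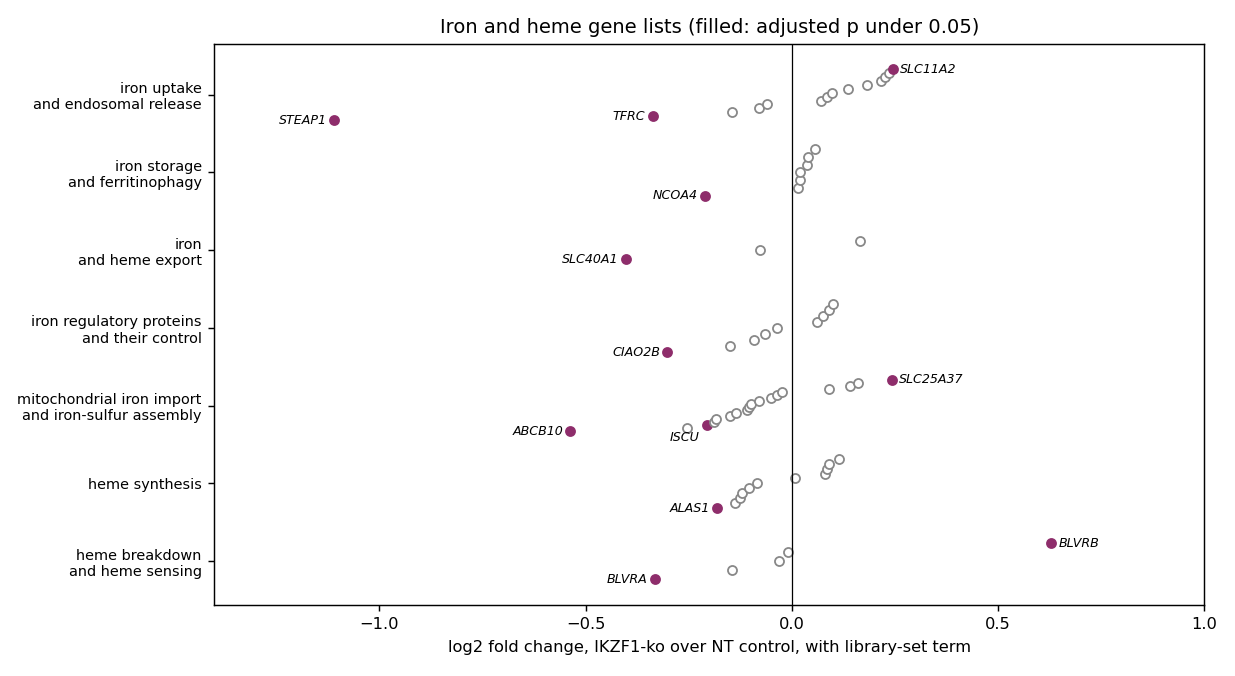
Log2 fold change of IKZF1-ko over NT control with the library-set term (x axis) for every tested gene of 7 iron and heme lists, spread vertically by rank within a list. Filled named points passed an adjusted p of 0.05, and open points did not. STEAP1 lies farthest left at -1.11 and BLVRB farthest right at 0.63.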

How the data were processed

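The authors deposited whole-number read counts per Ensembl gene, 1 column per library, used here as deposited. The kit was stranded, per the labels' protocols, and the submitters' processing notes name Trimmomatic, STAR and GRCh38. Which counter, strand setting and annotation were used is not stated in these sources. Columns were matched to samples by library name and groups taken from titles, with 0 columns of other samples. GENCODE 29 gave positions, exon lengths and overlaps for 57895 of the 58233 identifiers. A separate list of gene names gave a symbol for 57392 of the 58233.

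Genes were filtered with filterByExpr by group, which kept 99.9% of counts. Fits used edgeR 4.0.16 in R 4.3.3 (TMM factors, quasi-likelihood F test, two-sided, Benjamini-Hochberg adjustment over all tested genes, threshold 0.05). They were also run on simulated counts built with the same library sets and with changes larger than those of the members. That run covers neither the choice of the sets nor changes as small as those of the members. Log2 CPM used a prior count of 2. Standard errors are the log2 fold change over the square root of F, and intervals are 95%. The library-set term is the sign of the first principal component. Alternatives used DESeq2 1.42.0, limma 3.58.1, sva 3.50.0, other scalings and filters, a replicate block and each library left out. Figures used matplotlib 3.10.9.

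The members and lists were chosen with earlier results of these data known. Besides the members and IKZF1, up to 4 genes per list past the threshold with the library-set term are named, or the 2 most abundant where none passed.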

Additional observations from a re-analysis of the deposited data

How the results depend on the processing

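On group alone 0 members were called in all 14 alternatives. Over all genes that fit called 8 without a filter on low counts, 71 with DESeq2 and 1 with limma-voom, and 0 with each library left out or with the replicate block. With the library-set term the members called ranged from 3 to 5 over 16 alternatives. The 16 are not separate checks. When either library of the pair that stands apart is left out, the term takes up the other. Those fits then come close to the fit on the 4 libraries, which is also among the 16. Leaving out 1 library gave 3 to 4 members and 811 to 1943 genes, against 5 members and 1765 genes. It gave 3 members without IKZF1-ko replicate 3, NT control replicate 1 or NT control replicate 3, where SLC11A2 and ALAS1 did not pass. All genes called with this term were 1159 with DESeq2, 1031 with a surrogate variable and 2942 with the replicate block, in which 5 members were called. With 6 libraries the block leaves little from which to estimate the error, so its larger count is not read as a stronger result. It is among the 16 alternatives. Same-numbered libraries deviated from their group means with correlations of -0.66, -0.69 and 0.59, and not every library correlated best with its own number. The libraries that stand apart carry different numbers and dominate these deviations. The correlations therefore cannot decide whether the numbers pair the libraries.

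Signs turned for 4 members. With the library-set term FTL ran from -0.036 to 0.115 and FTH1 from -0.011 to 0.044 as single libraries were left out, and a surrogate variable gave -0.003 for FTL and -0.002 for FTH1. On group alone the same omissions gave -0.021 to 0.077 for FTH1, -0.059 to 0.135 for FTL, -0.23 to 0.68 for SLC25A37 and -0.27 to 0.11 for FECH. The sign turned without IKZF1-ko replicate 1 in all 4 genes, and for FTH1 and FTL also without NT control replicate 1 or 3, for FTL without IKZF1-ko replicate 2 and for FECH without NT control replicate 3. Of the other named genes, the same omissions on group alone gave -0.069 to 0.16 for PCBP1, -0.14 to 0.23 for PCBP2, -0.21 to 0.067 for UROS, -0.42 to 0.31 for EPOR, -0.27 to 1.19 for PRTN3 and -0.35 to 0 for NKG7. In the library-set fit NKG7 ran from -0.35 to 0.109 and was 0.108 in the 4 libraries, and a surrogate variable gave 0 for PCBP1 and -0.018 for PCBP2. The cause was not tested. With 3 libraries a group, the intervals on group alone spanned more than 1 log2 unit for TFRC, SLC25A37 and FECH.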
